A study of Mus musculus with 5 samples.

Results

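The 2 libraries numbered 4, of 5 libraries in all, were compared with the other 3 by the genes that set them apart. The numbers come from the titles of the libraries: number 4 was given to 1 library labelled WT (WT 4) and 1 labelled p75NTR-/- (p75NTR-/- 4), whereas WT 1, p75NTR-/- 1 and p75NTR-/- 2 carry the numbers 1 and 2. This division was chosen by the measured values of the same libraries, since WT 4 and p75NTR-/- 4 had been seen to lie together and away from the rest. All values of number 4 against the others are therefore given as a description and without a test.

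RNA was sequenced from untreated mouse neural stem/progenitor cells (NSPCs) of the C57BL/6J strain, grown under proliferation conditions with both FGF-2 and EGF at 20 ng/ml. The wildtype cells came from littermates of mice with the p75NTR-/- allele, which disrupts Ngfr, the gene of the neurotrophin receptor p75NTR, in every cell. The labels of all 5 libraries give E12.5 embryos, whereas the study's methods speak of adult NSPCs, and the table does not settle which. The study states that its replicates came from separate preparations of cells, but not whether WT and p75NTR-/- cells of the same number were prepared together. No source names a litter, a culture day, a cell density or a sequencing run for the numbers, so the number and any such difference cannot be told apart.

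Progenitors in FGF-2 and EGF divide and keep an undifferentiated state, and cytokines, oxygen and nutrients in the medium alter what they transcribe. When oxygen is short, the transcription factor HIF-1 raises the enzymes and transporters of glycolysis. Growth factor and stress signals induce the immediate early genes of the AP-1 family. Cytokines that signal through gp130, among them oncostatin M, are known to induce the intermediate filament gene Gfap in neural precursors, and glia that respond to injury raise Gfap together with protease inhibitors and complement.

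The expression unit is the normalized count, summed over the transcripts of a gene. The recovered totals lay between 11688211 and 14452396 counts per library, so depth differed little, and 10786 of 12588 genes had a mean of at least 50 normalized counts over the 5 libraries. Ngfr went against the labels: it had 0.98 and 2.08 normalized counts in the libraries labelled WT 1 and WT 4, and 9.89, 141 and 251 in those labelled p75NTR-/- 1, 2 and 4. The value covers the whole transcript, so it does not show whether the disrupted exon was present. The Y-linked gene Uty was found in every library, at 48.6 to 105 normalized counts. Mitochondrially encoded RNA made up 10.2 to 11.7% of the counts, but mt-Co1 alone held 4.24 to 4.52% in the number 4 libraries and 2.87 to 3.05% in the others. The part of mitochondrial RNA in the differences described here was not tested.

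**Figure D1:**
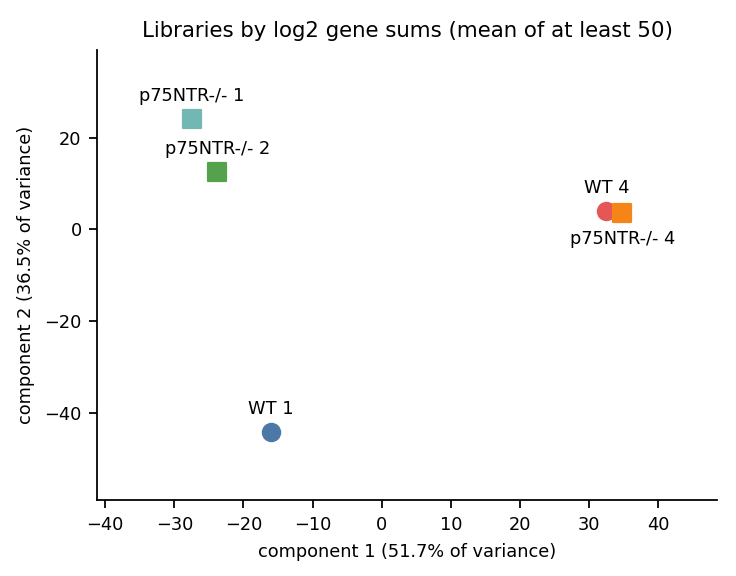
The first 2 principal components of the log2 gene sums of the 5 libraries (circles, label WT; squares, label p75NTR-/-; component scores without unit). WT 4 and p75NTR-/- 4 lie together at 32.5 and 34.8 on component 1, and the other 3 lie between -27.5 and -16.0, with WT 1 apart on component 2.

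The number 4 libraries were the most alike of the 10 pairs, with a Pearson r of 0.992 across genes, which are not independent replicates, against 0.929 to 0.981 for the other 9. The median absolute log2 difference between them was 0.09 over the 10786 genes, against 0.15 between p75NTR-/- 1 and p75NTR-/- 2 and 0.35 between WT 1 and p75NTR-/- 1. Component 1, which held 51.7% of the variance, placed number 4 on 1 side, and component 2, with 36.5%, placed WT 1 at -44.1 and the other 4 libraries between 3.57 and 24.1. WT 1 thus stood apart from p75NTR-/- 1 and 2 as well, and the counts of the larger gene lists are also given without it.

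A gene was said to part the libraries when its mean was at least 50 and the lowest library of 1 side was at least 2-fold above the highest library of the other on the scale log2(normalized count + 1). The mean covers both sides, so a gene low on 1 side can pass this filter through the other alone. This holds for the counts of measured list genes as well. Of the 10786 genes, 158 (1.46%) were higher and 51 (0.473%) were lower in number 4. Without the 2-fold demand, 2481 genes (23.0%) lay higher in both number 4 libraries than in each of the others and 2368 (22.0%) lay lower, and 5937 overlapped. The median log2 difference over all genes was 0.01, as the scaling of each library to its typical gene sets it, so a shift common to all genes could not be seen. Just inside the limit were Serpinb8, S1pr2 and Lgals3bp on the higher side, with gaps of 2.01-fold to 2.02-fold, and mt-Nd3, Itga2 and Slc44a5 on the lower side, each with a gap of 2.02-fold. Just outside were Bcr, Tmem176a and Prrx1, which reached 2.00-fold when rounded, and Hdac9, Natd1 and Gas6 with 1.98-fold, 1.96-fold and 1.94-fold. The limit therefore divides a continuous range of gaps.

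Of the 158 higher genes, 112 had their higher value in p75NTR-/- 4 rather than WT 4, beside 5333 of all 10786 genes and 26 of the 51 lower genes. The median absolute log2 difference between WT 4 and p75NTR-/- 4 was 0.17 in the higher genes, beside a median log2 difference from the other libraries of 2.06. For the 51 lower genes these medians were 0.20 and -1.67. Leaving out WT 1 widened the 2 sets to 317 and 94 genes. They held all 158 and all 51, which the rule fixes, since leaving out a library can only keep or widen a gap. These are 2.94 and 0.872% of all genes, and without WT 1 34.2% of all genes lay higher and 37.2% lower without overlap. The dominant transcripts of the higher genes had a median length of 3225 bases and 52.4% GC, those of the lower genes 4795 bases and 49.99%, and those of all 10786 genes 3069 bases and 50.2%. The lower genes also spanned more of the genome, with a median of 94.4 kb against 28.2 kb for the higher genes and 26.7 kb for all. Both sets were spread over the genome, on 20 and 18 chromosomes.

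**Figure D2:**
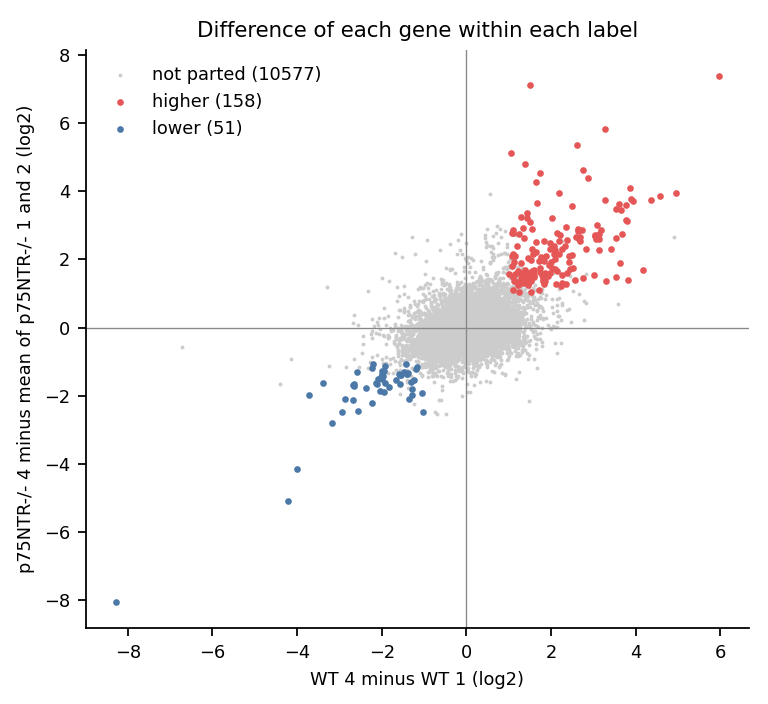
The log2 difference of each of the 10786 genes between number 4 and the lower numbers, within the WT label (horizontal axis) and within the p75NTR-/- label (vertical axis). The 158 higher genes (red) sit in the upper right and the 51 lower genes (blue) in the lower left, as the definition requires, and all other genes are grey.

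The members of the glycolysis and hypoxia list were higher in number 4 without exception. All 24 measured genes of the 25 listed lay higher in both number 4 libraries than in any of the other 3, beside 23.0% of all genes, and 6 of them parted the libraries by the 2-fold rule, beside 1.46%. The median log2 difference of the list was 1.79, against 0.01 for all genes. Values are given in the order WT 1, p75NTR-/- 1, p75NTR-/- 2, and then WT 4 and p75NTR-/- 4. Ca9 of the list was not used here.

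Transport into and out of the cell led the list. Slc16a3, which exports lactate, had 112, 0.99 and 68.5 normalized counts in the lower numbers and 291 and 328 in number 4, a log2 difference of 3.63. Slc2a1, the main glucose importer of dividing cells, had 1213, 199.9 and 698 against 3864 and 4733, a log2 difference of 2.95. For both transporters p75NTR-/- 1 was lowest and WT 1 came nearest to number 4. For the upper pathway enzymes Pfkp and Gpi1, which also parted the libraries, WT 1 lay nearer to the p75NTR-/- libraries with lower numbers than to number 4. Pfkp, the platelet form of phosphofructokinase, had 121, 127 and 132 against 781 and 752, with a gap of 5.66-fold. Gpi1, glucose-6-phosphate isomerase, had 18749, 13299 and 15732 against 51733 and 59667.

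Targets of HIF-1 outside the pathway were among the 6 as well. Ero1l, the oxidase that makes disulfide bonds in the endoplasmic reticulum, had 1873, 683 and 1119.7 normalized counts against 7555 and 8065. Vegfa, the vascular growth factor, had 1570.1, 287 and 963 against 3362 and 3592. In both genes number 4 was separate from the others, by 4.03-fold and 2.14-fold. The remaining 18 members were higher by less than the 2-fold gap. Bnip3, a mitophagy receptor, had 1526, 186 and 574 against 2522 and 2579.8. Gapdh had 47270.2, 37719.9 and 43645 against 73194 and 79841, and Pkm, the last step of the pathway, was nearest to equal, with 31834, 36741 and 34366 against 40699 and 39631.

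The lower numbers differed among themselves in these genes. In 21 of the 24 genes the order was p75NTR-/- 1, then p75NTR-/- 2, then WT 1, and p75NTR-/- 1 was lowest in 22. The median log2 difference was accordingly 0.69 between WT 4 and WT 1 and 2.27 between p75NTR-/- 4 and the mean of p75NTR-/- 1 and 2. Without WT 1, 14 of 24 genes passed the 2-fold gap, beside 2.94% of all genes. All 24 still did not overlap, beside 34.2% of all genes, but leaving out a library cannot make separate sides overlap. The order within the lower numbers is that of 3 single libraries and carries no replicate error. Other related genes outside the list, chosen after their values were seen, also parted the libraries. They were the glucose transporter gene Slc2a3 (637, 139.5 and 356 against 1733 and 2301), the enolase gene Eno2 (47.1, 51.5 and 54.1 against 310.0 and 341), Pfkfb3, whose product activates phosphofructokinase (689, 471 and 747 against 2717 and 3305), and the lipid droplet gene Hilpda (133, 72.2 and 101 against 292 and 326).

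**Figure D3:**
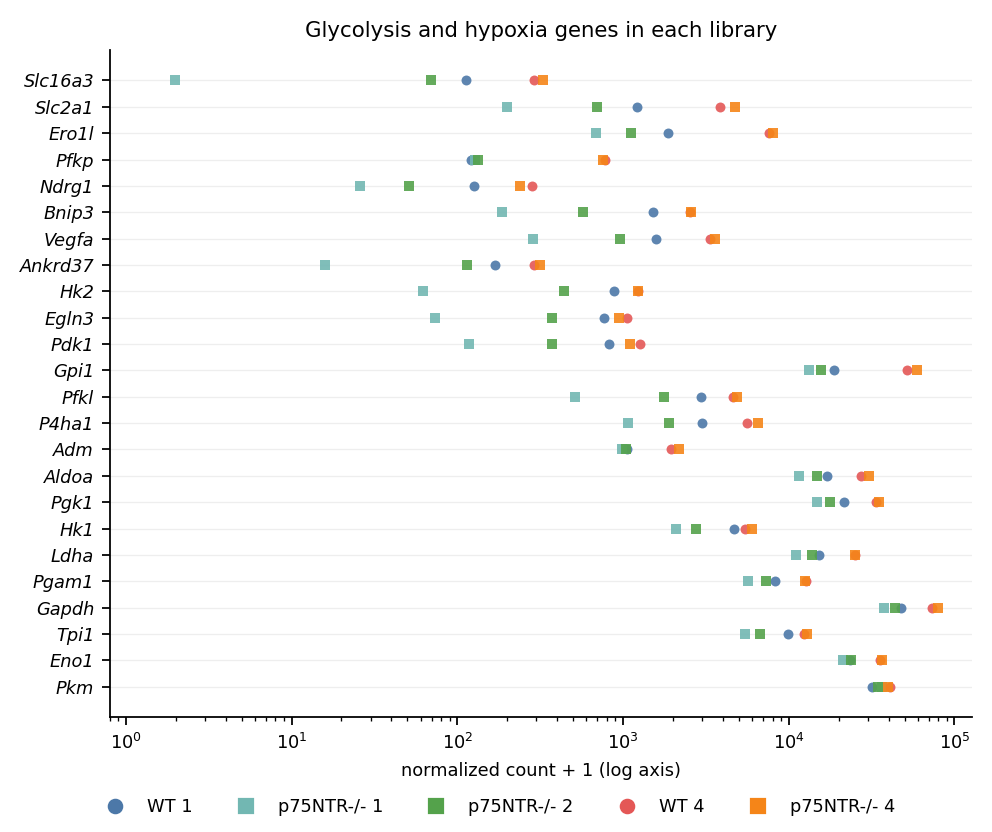
Normalized counts plus 1 (log axis) of the 24 measured glycolysis and hypoxia genes in each library, ordered by log2 difference. Both number 4 points (red and orange) lie to the right of the other 3 in every row, from a log2 difference of 3.63 for Slc16a3 to 0.23 for Pkm.

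The promoters of these genes were read for the letters that HIF-1 is known to bind, ACGTG or GCGTG, on either strand and counting overlapping matches. RefSeq windows of 300 bases (build GRCm38.p6, 250 before the start of the gene) were found for 23 of the 24 list genes, and 19 of them (82.6%) held the letters, against 5746 of 8662 windows of all measured genes (66.3%). The 126 windows of the 158 higher genes did not stand out in this respect, at 65.9%, and 22 of the 40 windows of lower genes held them. The median GC of the windows was 65.0% for the list and 62.0% for all, and GC content sets how often such letters occur. Shown are the 150 bases before the start for 3 genes that parted the libraries, as examples with 3 matches each, the matches in capitals. They lie at chr14:45318573-45318722 (minus strand) for Ero1l, chr13:6648772-6648921 (minus strand) for Pfkp and chr11:54100774-54100923 (plus strand) for P4ha2.
Ero1l: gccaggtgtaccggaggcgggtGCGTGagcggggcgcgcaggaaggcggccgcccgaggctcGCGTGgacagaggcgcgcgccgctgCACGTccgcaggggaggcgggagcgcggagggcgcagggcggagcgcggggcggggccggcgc
Pfkp: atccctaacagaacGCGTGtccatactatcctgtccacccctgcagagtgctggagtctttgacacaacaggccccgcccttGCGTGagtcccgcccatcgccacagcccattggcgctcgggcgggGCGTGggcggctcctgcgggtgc
P4ha2: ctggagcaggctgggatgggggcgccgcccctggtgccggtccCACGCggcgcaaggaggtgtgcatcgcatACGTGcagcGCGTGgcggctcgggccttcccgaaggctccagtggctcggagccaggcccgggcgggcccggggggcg
A match is a run of letters and not a measured binding site.

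The immediate early genes were the second list with many higher members. Of 17 measured genes, 11 lay higher in number 4 without overlap and 0 lower, beside 23.0 and 22.0% of all genes, and 5 passed the 2-fold gap upwards, beside 1.46%. The median log2 difference was 0.87. Without WT 1, 11 lay higher and 2 lower, beside 34.2 and 37.2% of all genes, and 5 passed the gap, beside 2.94%. Atf3, a stress-induced repressor, had 14.7, 46.5 and 16.8 normalized counts in WT 1, p75NTR-/- 1 and p75NTR-/- 2 and 213 and 257 in number 4. Fosl2, a Fos-related partner in AP-1, had 199, 52.4 and 99.7 against 908 and 1126. The gaps were 4.51-fold and 4.54-fold, although the highest of the lower numbers was p75NTR-/- 1 in Atf3 and WT 1 in Fosl2. Junb had 87.3, 92.0 and 112 against 369 and 535, and Jun had 564, 725 and 806 against 1939 and 2206. Ier3, an early gene of growth factor signalling, had 94.2, 127 and 139 against 514 and 568. Fos itself was higher by less, at 480, 331 and 467 against 872 and 1209, and Fosl1 stayed under the mean of 50 with 0, 9.89 and 2.40 against 47.9 and 77.1.

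The early genes did not all move. Egr1 overlapped between the sides, with 1471, 3511 and 3480 against 3451 and 3867, and so did Myc, with 452, 1667 and 1338 against 1012 and 975. Btg2 had its highest value in WT 1, at 1191, and 362 and 381 in number 4. For Egr1 and Myc, number 4 resembled or lay below the p75NTR-/- libraries with lower numbers, and WT 1 was the lowest library.

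The AP-1 letters TGACTCA or TGAGTCA, each the reverse complement of the other, were present in 16 of 126 promoter windows of the higher genes (12.7%), 0 of 40 of the lower genes and 253 of 8662 of all measured genes (2.92%). None of the 23 glycolysis and hypoxia windows held them. Srxn1, whose product reactivates peroxiredoxins, is shown because 2 matches lie before its start. It was chosen after its values were seen, which were 52.0, 65.3 and 75.7 normalized counts against 199.7 and 203. The bases lie at chr2:152105374-152105523 (plus strand), with the AP-1 letters in capitals.
Srxn1: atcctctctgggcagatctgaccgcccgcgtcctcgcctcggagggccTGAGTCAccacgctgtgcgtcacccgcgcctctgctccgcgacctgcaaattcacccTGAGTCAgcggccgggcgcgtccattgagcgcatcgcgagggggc
The share of AP-1 letters was described and not tested against other gene sets.

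In the list of unfolded protein and amino acid response genes, 3 of 24 measured genes parted the libraries upwards, beside 1.46% of all genes, and all 3 belong to the arm that runs through ATF4. The list holds other genes of that arm, among them Atf4 and Asns, and none of these passed the 2-fold gap. Ddit3, the stress-induced factor also called CHOP, had 359, 284 and 289.5 normalized counts against 1662 and 1872. Chac1, which degrades glutathione, had 18.6, 104 and 87.7 against 277 and 255, and Trib3, a pseudokinase induced by ATF4, had 19.6, 73.2 and 62.5 against 203 and 175. WT 1 was far below the p75NTR-/- libraries in Chac1 and Trib3, but not in Ddit3. In all, 12 of the 24 lay higher and 1 lower without overlap, beside 23.0 and 22.0% of all genes, and the list had a median of 0.36. Without WT 1, 15 lay higher and 4 lower, beside 34.2 and 37.2% of all genes, and 3 passed the 2-fold gap, beside 2.94%. The chaperone gene Hspa5, a marker of the unfolded protein response itself, overlapped between the sides at 7917, 14827 and 12818 against 12713 and 12067.

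Genes of cytokine response and reactive glia were among those with the largest differences upwards. Osmr, the receptor subunit for oncostatin M, was at 1.96, 0.99 and 0 normalized counts in the lower numbers and at 183 and 232 in number 4. The 3 lower libraries held 3 counts together and the number 4 libraries 396. This is a ratio of 198, with an exact 95% counting interval of 67.3 to 964. The interval covers counting error only, not the spread between libraries, and Osmr was picked for its difference. Gfap had 241, 11.9 and 1.20 against 680.3 and 746. It was near 0 in p75NTR-/- 2, low in p75NTR-/- 1 and clearly present in WT 1, so its mean difference of 5.23 log2 units stands beside a gap of 2.81-fold, which was 52.9-fold without WT 1. Serpina3n, a secreted protease inhibitor, had 46.1, 32.6 and 20.4 against 694 and 369, and C4b, a complement component, had 49.1, 32.6 and 28.8 against 728 and 539.8. Timp1, an inhibitor of matrix metalloproteinases, had 29.4, 24.7 and 28.8 against 370.3 and 338. In these 3 genes each of the lower numbers stayed under 50 normalized counts, and WT 4 exceeded p75NTR-/- 4.

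The astrocyte markers as a list were mixed. Of 25 measured, Gfap and Clu parted the libraries upwards and Id3 downwards, beside 1.46 and 0.473% of all genes. Clu, a secreted chaperone, had 540, 343 and 204 normalized counts against 2459 and 1554, and Id3, an inhibitor of bHLH factors and a BMP target, had 613, 692 and 1112 against 251 and 248. In all, 8 members lay higher and 1 lower without overlap, beside 23.0 and 22.0% of all genes, and 16 overlapped, with a list median of 0.42. Aldh1l1, a marker of the astrocyte lineage, had 23093, 16444 and 19687 against 22171 and 25549, and Apoe was highest in WT 1, at 55071, with 4535 and 7191 in p75NTR-/- 1 and 2 and 23581 and 25453 in number 4. Without WT 1, 20 of the 25 lay higher without overlap, beside 34.2% of all genes, and 8 passed the 2-fold gap upwards, beside 2.94%. In RNA from whole cultures, more cells of a type and more RNA per cell cannot be told apart.

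**Figure D4:**
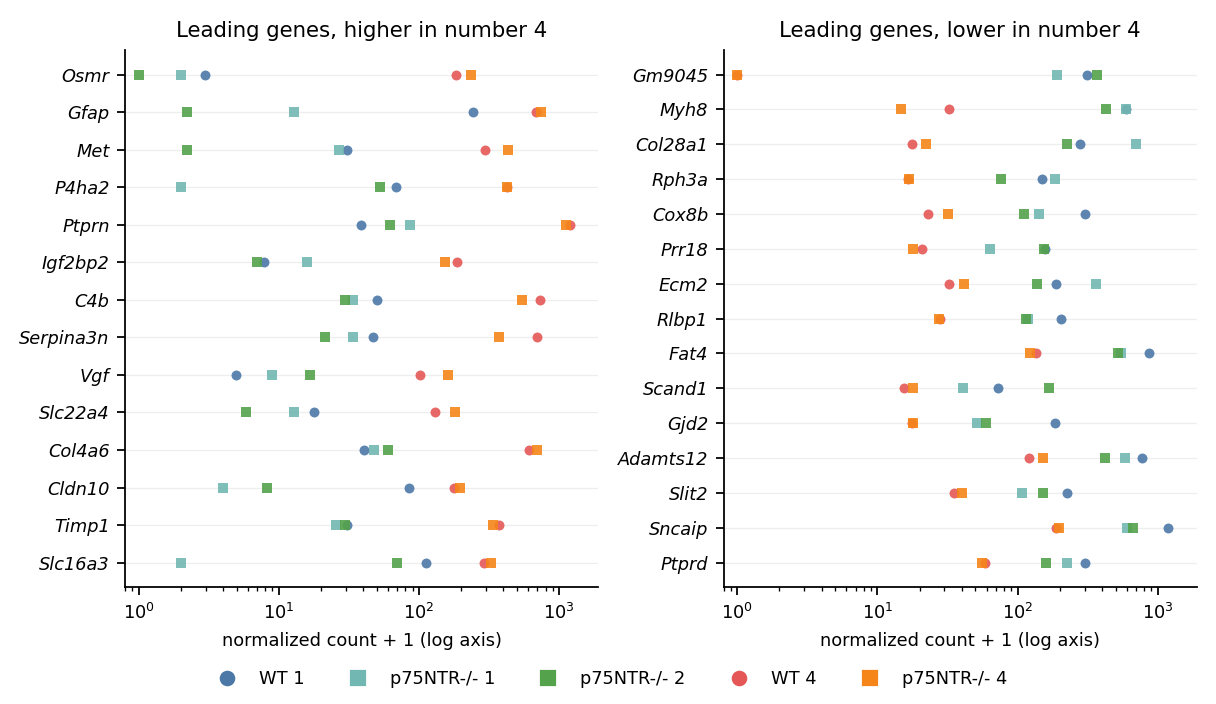
Normalized counts plus 1 (log axis) in each library for the genes with the largest log2 difference in each direction, 14 higher and 15 lower. Osmr and Gm9045 were at or near 0 on 1 side, and for Gfap, Cldn10 and Slc16a3 the WT 1 point (blue) lies far to the right of p75NTR-/- 1 and 2.

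Among the other leading genes were a growth factor receptor and several secreted or matrix proteins. Met, the receptor for hepatocyte growth factor, had 29.4, 25.7 and 1.20 normalized counts against 295 and 433. P4ha2, a subunit of the enzyme that hydroxylates collagen prolines, had 67.7, 0.99 and 51.7 against 420.3 and 420.5. Col4a6, a basement membrane collagen, had 39.2, 46.5 and 58.9 against 612 and 698, a gap of 10.2-fold. Cldn10, a claudin of tight junctions, had 84.4, 2.97 and 7.21 against 177 and 196, so that its gap of 2.08-fold rested on WT 1 and was 21.7-fold without it.

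Secretory and transport genes had wide gaps as well. Ptprn, a protein of dense core vesicles, had 37.3, 85.1 and 61.3 against 1189 and 1126, a gap of 13.1-fold. Vgf, a neuropeptide precursor, had 3.92, 7.92 and 15.6 against 99.9 and 161. Slc22a4, an organic cation transporter, had 16.7, 11.9 and 4.81 against 129 and 179.6. The RNA-binding protein gene Igf2bp2 had 6.87, 14.8 and 6.01 against 185 and 152. Number 4 was clear of the others in each of these 4 genes. Igf2bp2 belongs to the embryonic progenitor timing list, of which Hmga1, a chromatin protein, was also in the higher set (31.4, 48.5 and 63.7 against 174 and 214), and Peg3 lay lower without overlap by 1.14-fold. Reads of Hmga1 can be shared with its near copy Hmga1b, which was in the higher set too, so neither value is certain. Lin28a, Lin28b and 10 other genes of the 17 in that list were not used here.

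Defining markers of other cell types were checked for the whole list in each case. Of the 28 neuroblast and neuron markers, 18 were measured and 5 parted the libraries upwards: Stmn4 (21.6, 16.8 and 15.6 against 139 and 120.4), Nefl (12.8, 28.7 and 21.6 against 119.6 and 124), Nefm (50.05, 64.3 and 66.1 against 225 and 209), Gad1 (665, 293 and 406 against 1404 and 1483) and Elavl3 (78.5, 65.3 and 84.1 against 215 and 179). These encode a tubulin regulator, 2 neurofilament chains, the enzyme that makes GABA and an RNA-binding protein. Tubb3 overlapped between the sides, at 261, 184 and 274 against 243 and 203, and the list median was -0.06. The 5 that parted the libraries upwards stand beside 1.46% of all genes. In all, 6 of the 18 lay higher and 5 lower without overlap, beside 23.0 and 22.0% of all genes. Without WT 1, 7 lay higher and 7 lower, beside 34.2 and 37.2%. Among the 5 lower members were Map2, a microtubule protein of dendrites (9156, 8892 and 8194 against 5537 and 5401), and Nsg2, a protein of neuronal endosomes (1869, 837 and 795 against 575 and 618). The summed level of the list was lower in number 4, at 12376 to 12546 normalized counts against 14033 to 17672. Of 13 microglia and macrophage markers only Cd68, a lysosomal protein, was in the higher set (40.2, 37.6 and 55.3 against 160.2 and 227), and 11 of the 13 were not used here. Of the endothelial, pericyte and fibroblast markers Flt1, a receptor for VEGF, was in the higher set (31.4, 30.7 and 33.6 against 213 and 242), whereas Pdgfra (112.8, 34.6 and 72.1 against 38.5 and 50.7) and Acta2, a smooth muscle actin (52.0, 249.3 and 168 against 59.3 and 63.4), overlapped. The median of these 3 was -0.56, and Kdr and Col1a1 stayed under a mean of 50. Their part in the differences was not tested.

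Of 19 measured progenitor and radial glia markers, 12 overlapped between the sides, 5 lay higher and 2 lower, beside 23.0 and 22.0% of all genes, and the median was 0.07. None of the 19 parted the libraries, but so few genes did in all (1.94%) that this is near the background. Without WT 1, 10 lay higher and 3 lower, beside 34.2 and 37.2% of all genes. Fabp7, the fatty acid binding protein of radial glia, had 35613, 37905 and 36795 normalized counts against 37087 and 39744, and Sox2 had 1517, 714 and 1165 against 1045 and 1240.3. The sides overlapped for Sox2, and for Fabp7 by the value of WT 4. Sox1 had 100.1, 38.6 and 51.7 against 52.0 and 59.2, Ptprz1, a receptor phosphatase, had 65632, 52486 and 49218 against 47509 and 51495, and Msi2, an RNA-binding protein, had 1491, 851 and 1067 against 1209 and 1296. Vim, the filament protein of progenitors and reactive glia, had the highest log2 difference of those measured, 0.91, with 20556, 23981 and 23753 against 40938 and 44562. Hes5, a Notch target, had the lowest log2 difference at -2.62, from 546, 43.5 and 222 to 24.97 and 30.6.

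The 51 lower genes formed fewer groups. The largest difference was that of Gm9045, a predicted protein-coding gene on chromosome 10, with 309, 191 and 369 normalized counts in the lower numbers and 0 in both number 4 libraries. Against a floor of 3 counts per library it was at least 92.1-fold lower in number 4. Myh8, a developmental myosin heavy chain, had 592, 595 and 424 against 31.2 and 13.7, and Col28a1, a collagen, had 279.7, 694 and 225 against 16.6 and 21.1. These 3 genes had gaps over 10-fold, and the other 48 had gaps of 4.48-fold or less.

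Neuronal and adhesion genes were among the leading lower ones. Rph3a, a synaptic vesicle protein, had 148, 184 and 74.5 normalized counts against 15.6 and 15.8, and Gjd2, a neuronal connexin, had 184, 50.5 and 58.9 against 16.6 and 16.9. Slit2, an axon guidance ligand, had 224, 107 and 151 against 34.3 and 39.1. Ptprd, a synaptic receptor phosphatase, had 302, 226 and 157 against 57.2 and 54.9, and Sncaip, which encodes a partner of synuclein, had 1184, 598 and 667 against 187 and 198. For Gjd2 and Sncaip WT 1 was well above both p75NTR-/- libraries with lower numbers, and number 4 was below all. Fat4, a large cadherin, had 863, 548 and 517 against 133 and 121.

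Of the other leading lower genes, Ecm2, a matrix protein, had 187, 361 and 136 normalized counts against 31.2 and 40.1, and Adamts12, a secreted metalloprotease, had 764, 583 and 422 against 119.6 and 151. Rlbp1, a retinoid-binding protein also found in glia, had 204, 118 and 113 against 27.0 and 26.4. Cox8b, a cytochrome oxidase subunit, had 299, 140.5 and 111 against 21.8 and 30.6. The remaining leading genes were Prr18 (157, 62.3 and 154 against 19.8 and 16.9) and Scand1 (71.6, 39.6 and 165.8 against 14.6 and 16.9). Of the mitochondrially encoded genes, mt-Nd3, a subunit of complex I, was in the lower set (15790, 21012 and 15607 against 6938 and 7735), whereas mt-Co1 lay higher in number 4 by a gap of 1.45-fold, so the mitochondrial transcripts did not move together.

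**Figure D5:**
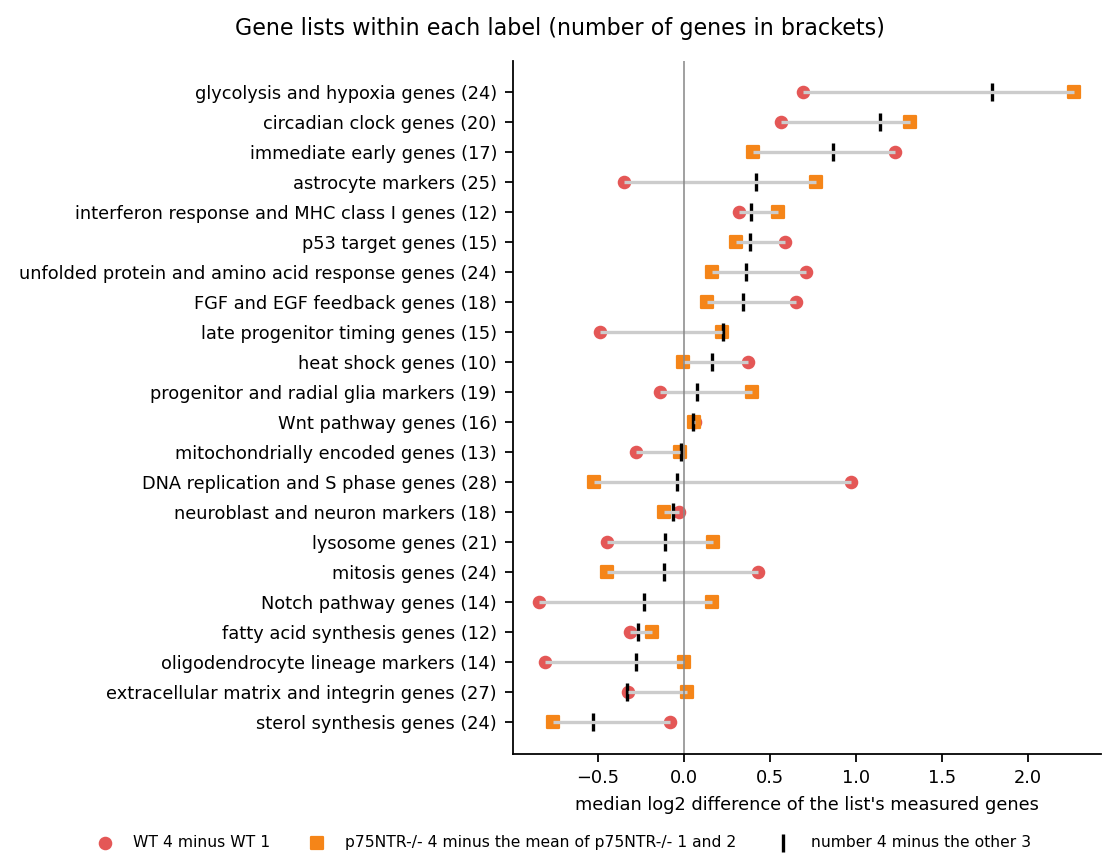
Median log2 difference of each gene list with at least 10 measured genes, within the WT label (red circles), within the p75NTR-/- label (orange squares) and over all libraries (black marks). The glycolysis and hypoxia list has the highest median over all libraries, 1.79, and DNA replication genes lie at 0.97 within the WT label and -0.52 within the p75NTR-/- label.

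The number 4 libraries also differed in which transcript of a gene was counted. Over 17796 transcripts of 9051 genes with at least 100 normalized counts in each library, the share of 79 transcripts (0.444%) in 45 genes parted the libraries by 20 percentage points or more. The gene sum parted the libraries in 2 of the 45 genes, beside 78 of the 9051 (0.862%). In Dyrk1b, a kinase gene, 1 transcript held 0% in all 3 lower numbers and 54.5 and 59.8% in number 4, while another, with 80.1 to 92.1% in the lower numbers, held 45.5 and 23.3%. In Ssh1, a cofilin phosphatase gene, a transcript held 0% in the lower numbers and 49.8 and 54.7% in number 4. For both genes the new share came from 107 to 123 normalized counts per library. In Edrf1, a transcript with 79.7 to 84.1% in the lower numbers held 35.3 and 37.3% in number 4, and in Endov, a nuclease gene, one with 79.6 to 84.7% held 38.6 and 23.7%. Salmon divides shared reads by a model, and 25 of the 79 transcripts have no exonic base of their own, so these shares are estimates whose error the table does not give.

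The genotype labels cross the division by number, though not evenly, as number 4 holds 1 of 2 libraries labelled WT and 1 of 3 labelled p75NTR-/-. They were tested over all 12588 genes with limma. Only Gm15446, a predicted gene, passed an adjusted p of 0.05 with a 1.5-fold change (1 of 12588, 0.00794%), with 0 normalized counts in WT 1 and WT 4 and 182, 183 and 150.01 in p75NTR-/- 1, 2 and 4. Its log2 difference, p75NTR-/- minus WT, was 7.43 ± 0.17 (SE) on the scale with 1 added, with an adjusted p of 0.0015 by limma, and it was higher in 3 of 3 libraries. The adjusted p was 0.25 by limma with the replicate block and 0.13 by edgeR. Of the genes that part the libraries by number, 0 of 158 and 0 of 51 were called between the labels. None of them had an unadjusted p under 0.05 by limma. This stands beside 2.08% of all 12588 genes, and 134 of the 10786 with a mean of at least 50. But the gap for which they were chosen lies within each label and widens its spread, so their choice fixed this outcome. With a term for number 4 in the limma fit, 11 of the 158 (6.96%) and 3 of the 51 (5.88%) had an unadjusted p under 0.05, beside 457 of all 12588 genes (3.63%), and 0 passed after adjustment. The 12588 include genes with a mean under 50, which the 158 and 51 do not. The 158 and 51 were also chosen by a gap in these same libraries, which bears on the spread left in this fit. Their shares are therefore not read as an effect of the labels. Without that term, edgeR and DESeq2 on the recovered counts called 0 of both sets, an outcome to which the choice of genes applies in the same way. DESeq2 gave no adjusted p for 1 of the 158, Gfap. With 2 libraries against 3, a p that misses the threshold does not show that the labels are alike in these genes.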

How the data were processed

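RNA-Seq values of 5 libraries were read from 1 table of the whole series, with 0 columns of per-sample values unused. The authors made stranded polyadenylated libraries from NSPC cultures, quantified reads with Salmon 0.10.2 on the GRCm38.p6 transcriptome, imported them with tximport and normalized them with DESeq2 1.22.0 in R 3.6.1. The deposited signal is a size-factor-scaled count per transcript, raised by 0.5. The authors' TPM columns were treated as a score, since repeated lines raise their sum, and used in 1 alternative only. The authors' own comparison columns (fold changes and p-values) were not used.

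Of 22530 lines, 303 repeated a transcript and were dropped. After 0.5 was subtracted, 100% of values were whole multiples of a step per library (tolerance 0.1 counts), which gave back the counts. Values were summed per symbol to 12588 genes. Of 22227 transcripts, 22206 (99.9%) matched GENCODE of the same build, which gave coordinates, length and GC content.

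The division by number was described without a test, as it was chosen by these values. The genotype labels were tested with limma 3.58.1 on log2(normalized count + 1), with Benjamini-Hochberg adjustment over all genes, and as alternatives with DESeq2 1.42.0 and edgeR 4.0.16 (R 4.3.3). Other steps used Python 3.11.15 with pandas 2.3.3, numpy 2.4.6, scipy 1.17.1 and matplotlib 3.10.9. Of the procedures, the genotype tests were tried on simulated counts, which held no difference by replicate number. Replicates came from separate cell preparations, as the study states, though the labels do not tie a library to one, and counting intervals cover counting error only.

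The libraries, gene lists and rule for named genes were chosen with earlier results of these data known. Named were the 15 genes with the largest difference in each direction, up to 8 parting members of each list with its defining markers, genes called between the labels, transcripts with the largest gap in share, genes nearest the 2-fold limit, and Ngfr and Uty as checks. Of these, 2 genes are not reported here, though the counts and medians of their lists include them. The lists of reactive astrocyte, circadian clock and retinoic acid genes were added after the values were seen. Promoter sequences are RefSeq's for GRCm38.p6, found for 8662 of 10786 genes.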

Additional observations from a re-analysis of the deposited data

Results flagged for a closer look

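The DNA replication and S phase genes moved in opposite directions within the 2 labels. Their median log2 difference was 0.97 between WT 4 and WT 1, where all 28 measured genes were higher in WT 4. It was -0.50 between p75NTR-/- 4 and p75NTR-/- 1 and -0.54 between p75NTR-/- 4 and p75NTR-/- 2, with 26 of 28 genes lower against both. The mitosis genes did the same, at 0.43 within the WT label and -0.45 and -0.49 within the p75NTR-/- label, with 21 of 24 genes in the first direction and 24 of 24 in the second. WT 1 therefore had the lowest values of these lists, and number 4 lay between it and p75NTR-/- 1 and 2.

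The astrocyte markers and the late progenitor timing genes went the other way. The astrocyte medians were -0.35 within the WT label and 0.99 and 0.58 within the p75NTR-/- label, and those of the late timing genes were -0.49, 0.61 and 0.33. These lists share genes. The difference between the labels was not tested in any of the 4 lists, since the WT label has 1 library on each side.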

How the results depend on the processing

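The counts of 158 higher and 51 lower genes depend on where the limits are set. They were 378 and 202 with a gap of 1.5-fold, 40 and 5 with 4-fold, 260 and 86 without a filter on the mean and 81 and 21 with a mean of at least 200. Within the WT label they were 610 and 463, and within the p75NTR-/- label 390 and 163. Leaving out 1 library gave 179 to 317 higher genes, the most without WT 1, and 68 to 94 lower genes, with 82 without p75NTR-/- 1 or without WT 4. TMM, CPM, another pseudocount, TPM and the highest single transcript kept both counts within 1.5 times. Of 766 recomputed log2 differences of 59 named genes, 0 changed sign, and 63 moved by more than 1 SD. These genes were chosen for a 2-fold gap, so leaving out a library or taking 1 label could not change their sign.

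For the genotype labels, with 1 gene called, 0 were called with the replicate block (240 with an unadjusted p under 0.05), 0 by edgeR (260 with an unadjusted p under 0.05) and 7 by DESeq2. Leaving out 1 library gave 0 to 1, with 0 without WT 1 or without p75NTR-/- 2. The numbers 1 and 4 occur under both labels. The study calls its replicates separate preparations, but no source says whether a shared number marks a shared preparation.

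With a gap of 10 points, 272 transcript shares parted the libraries in place of 79, and leaving out 1 library gave 97 to 232. Of the glycolysis and hypoxia genes, 6 to 14 passed the 2-fold gap when 1 library was left out, the most without WT 1, and TMM left 6. At 11688211 counts or more, depth limits values near the floor of 3 counts.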

Other observations

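Genes of the circadian clock, a list added after the values were seen, were higher in number 4 in 14 of 20 measured genes without overlap and lower in 0, beside 23.0 and 22.0% of all genes, with a median log2 difference of 1.14. By 2-fold 6 parted the libraries, beside 1.46% of all genes. Without WT 1, 18 lay higher, beside 34.2% of all genes, and 10 parted the libraries, beside 2.94%. Nr1d1, which encodes the repressor REV-ERBα, had 1056, 325 and 547 normalized counts in WT 1, p75NTR-/- 1 and p75NTR-/- 2 and 2974 and 3604 in WT 4 and p75NTR-/- 4. Nfil3, a repressor of clock outputs, had 90.3, 96.0 and 106 against 469 and 599, and Ciart, another repressor of the clock, had 346, 56.4 and 189.8 against 748 and 762. Rorb, Bhlhe41 and Noct also parted the libraries. Per2 was nearest to equal of those without overlap, at 207, 191 and 223 against 281 and 247. No source used here gives the hour at which the cultures were collected.

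Of 8 measured retinoic acid pathway genes, a list also added later, 4 were in the higher set, beside 1.46% of all genes. Among these were Aldh1a3, which makes retinoic acid, with 9.82, 15.8 and 24.03 normalized counts against 148 and 245, and the receptor genes Rara (193, 54.4 and 139 against 493 and 671) and Rarb (153, 144 and 159.8 against 482 and 704). The pan-reactive astrocyte genes were a list added after the values were seen as well. Of the listed genes, 11 had values and 7 were measured. Of these 7, Osmr, Gfap, Serpina3n and Timp1 were in the higher set, beside 1.46% of all genes. Osmr, Serpina3n and Timp1 stayed under 50 normalized counts in each of the lower numbers, so they passed the filter on the mean through number 4. These 4 are among the leading genes already described. With Cd44 and Vim, 6 lay higher without overlap, beside 23.0% of all genes.

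Sterol synthesis genes lay lower in number 4 without overlap in 6 of 24, a share near the 22.0% of all genes, and higher in 0, beside 23.0%, and 0 parted the libraries by 2-fold. Without WT 1 all 24 lay lower without overlap, beside 37.2% of all genes, and 4 passed the 2-fold gap, beside 0.872%. The list median was -0.53, and it was -0.08 within the WT label and -0.76 within the p75NTR-/- label. Mvk, mevalonate kinase, had 805, 1149 and 1299 normalized counts against 498 and 455. Of 14 measured oligodendrocyte lineage markers 4 lay lower without overlap, also near the 22.0% of all genes, and 0 higher, beside 23.0%. Without WT 1, 5 lay lower and 2 higher, beside 37.2 and 34.2% of all genes. Among the 4 lower in all comparisons were Olig2, with 1210.0, 1774 and 1987 against 704 and 701, and Olig1, with 2684, 1723 and 3026 against 1219 and 1153.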
